A study of Raphidocelis subcapitata with 270 samples.

Results

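Metolachlor OA was examined at 7 labelled dose levels, D1 to D7, against the solvent dimethyl sulfoxide (DMSO), in Raphidocelis subcapitata, a single-celled green alga of fresh water widely used in toxicity tests. The libraries were chosen by their labels alone: 21 treated libraries, 3 at each of D1 to D7, and the 3 DMSO libraries of the same control set, so 24 of the 270 libraries of the series. All groups were algae in exponential growth, held in 96-well plates for 24 h at 24 °C under 4300 lux, and differed by the label only in the agent and its level. The 3 DMSO libraries were also the controls of 3,4-Dichlorophenyl isocyanate, and 10 further chemicals had other DMSO libraries. Half-log dilutions, typically between 66.7 and 0.021 µM, are given for the series as a whole. The labels state neither the concentration of a level nor which end of the series D1 was, so the levels are named groups. Nothing in the labels says that the 3 libraries of a group came from separate cultures. The p-values therefore measure only how far these libraries spread, which may be technical.

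Metolachlor is a chloroacetanilide herbicide, a class that blocks the condensing enzymes which build very-long-chain fatty acids for membranes and surface lipids. Metolachlor OA is the usual name in water monitoring for its oxanilic acid, a degradate in which the reactive chlorine of the parent is gone. Transcripts were counted by their 3′ ends, so that counts depend little on transcript length. The files list genes by identifier only and pair none with a name or product, so every gene below is given by its identifier and its function is not stated.

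The tables hold 13429 genes, of which 10871 to 11416 had a count in a given library and 9436 were tested. Library totals ran from 997010 to 1752548 counts at D1 to D7, and from 731426 to 1045143 in DMSO. The 100 most abundant genes took 20.7% to 21.6% of counts in every library. DMSO replicate B had the lowest total and stood apart on the second principal component, at 36.8 against -12.8 to 4.58 in the other 23 libraries. Counts of called genes that moved without it, and the medians and recurrence of the D1 genes, are given also without it below. On the first component the 3 D1 libraries lay between -22.4 and -19.6, outside the range of all other libraries. D2 replicate A came next at -13.9, and DMSO lay between -3.32 and 4.92. At D3 to D7 the same component separated the replicate letters. Replicate A lay between -6.74 and 0.224 there, and replicates B and C between 5.28 and 15.8.

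**Figure D1:**
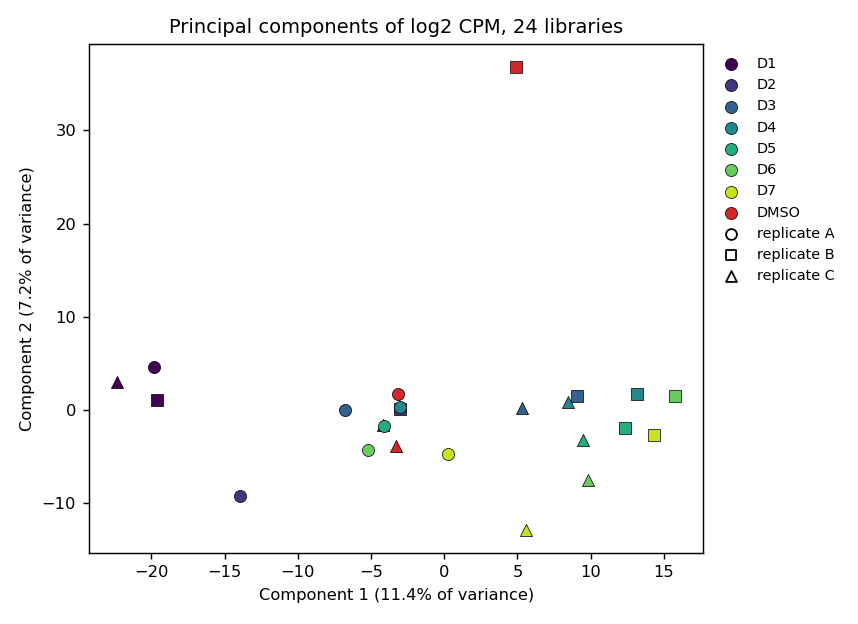
Scores of the 24 libraries on the first (x axis) and second (y axis) principal component of log2 CPM, with the percent of variance on each axis; colour gives the level or DMSO and shape the replicate letter. D1 lies at the far left, between -22.4 and -19.6, and DMSO replicate B lies alone at the top, at 36.8.

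Genes that differed from DMSO were concentrated at D1. There 53 genes were higher (0.562%) and 98 lower (1.04%) than in DMSO at an adjusted p under 0.05 (edgeR quasi-likelihood test, Benjamini-Hochberg), together 1.60% of the genes tested. At D2 6 genes were higher and 6 lower (0.0636% each, 0.127% together), and at D3 5 were higher (0.0530%) and 2 lower (0.0212%), together 0.0742%. All calls at the later levels were higher than DMSO: 1 at D4 (0.0106%), 3 at D5 (0.0318%) and 2 at D7 (0.0212%). At D4 the count was 0 without D4 replicate A or B and 2 without DMSO replicate B, and at D7 it was 0 without D7 replicate B or C or DMSO replicate A or C. No gene passed at D6, where the unadjusted p was under 0.05 for 680 genes, DESeq2 called 8 and the fit with no filter on low counts called 28. Leaving out DMSO replicate B gave 2 there, DMSO replicate C or D6 replicate B 1, and D6 replicate A 5. Over DMSO and all levels at once, 234 genes differed (2.48%), and among the 7 levels without DMSO in the contrast 227 did (2.41%). With D1 replicate B left out these counts were 117 and 124, and with D1 replicate C left out 109 and 107. All comparisons with DMSO use the same 3 DMSO libraries.

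**Figure D2:**
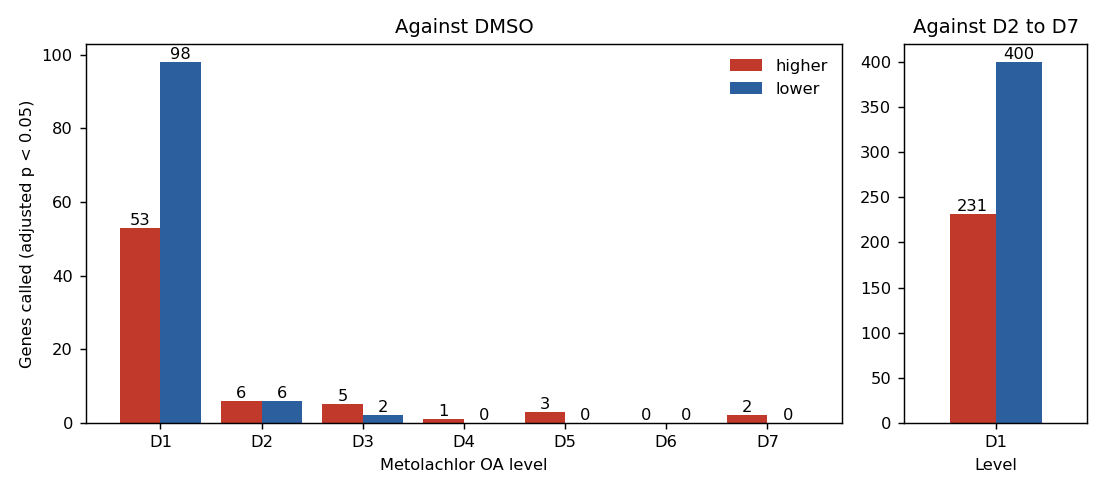
Number of genes called (y axis, adjusted p under 0.05) higher or lower at each Metolachlor OA level (x axis) than in DMSO, left, and at D1 than in the mean of D2 to D7, right, on a separate y scale. D1 has 53 higher and 98 lower genes against DMSO, while D2 to D7 have at most 6 in either direction.

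The size of the change at D1 was mostly under 2-fold. The higher genes had a median log2 fold change of 0.83 (range 0.24 to 2.28), 12 of them over 2-fold, and the lower genes a median of -0.74 (range -1.97 to -0.28), 29 of them over 2-fold. Without DMSO replicate B these medians were 0.88 over 33 higher genes and -0.85 over 58 lower genes. The median level of the genes that passed was 84.6 CPM (counts scaled to a common library total) for the higher and 120.2 CPM for the lower genes, against 40.9 CPM over all genes tested. In 95 of the 151 genes, the 3 D1 libraries lay beyond all 21 other libraries, DMSO included, which held for 77 genes above and 140 below over all genes tested. The count of called genes depended on single libraries. Leaving out DMSO replicate A gave 39 and leaving out DMSO replicate B gave 91. With D1 replicate B left out it was 64, and with D1 replicate C left out 43. One fit with the isocyanate libraries gave 39.

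Rsub_11267 was the most stable of the genes named at D1. It had 117, 115 and 100.0 CPM at D1, against 41.5, 47.4 and 33.3 CPM in DMSO. At D2 it had 51.8, 48.4 and 52.1 CPM and at D3 58.6, 50.9 and 79.3 CPM, while the 12 libraries of D4 to D7 ran from 26.2 to 52.9 CPM with a median of 41.6. The D1 libraries were thus above every other library. D2 and D3 also lay above every DMSO library without passing there (edgeR adjusted p = 0.731 and 0.429), and D4 to D7 overlapped DMSO. The log2 fold change at D1 was 1.46 ± 0.197 (SE; edgeR adjusted p = 1.23e-05), and the gene stayed called in all 12 alternative fits. Rsub_08410, the gene with the largest rise under the naming rule, had only 14.4, 16.0 and 15.1 CPM at D1, against 6.07, 4.06 and 1.91 CPM in DMSO. Those are 58 counts at D1 and 11 in DMSO. Its log2 fold change was 1.91 ± 0.505 (SE; edgeR adjusted p = 0.0399), and it lost the call in 7 of 11 alternatives, among them those without any 1 of the 6 D1 and DMSO libraries.

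Of the genes that fell at D1, Rsub_09261 and Rsub_01016 fell furthest under the naming rule. Rsub_09261 had 29.6, 30.6 and 26.9 CPM at D1, against 72.9, 137 and 134 CPM in DMSO, a log2 fold change of -1.97 ± 0.415 (SE; edgeR adjusted p = 0.00703). It lost the call in 2 of 12 alternatives, without D1 replicate C (-1.91) and in one fit with the isocyanate libraries (-1.96). The gene also differed between replicate letters: at D3 to D7, replicate A had 71.4 to 118 CPM, below every B and C library, which ran from 174 to 243 CPM. Rsub_01016 had 6.82, 7.64 and 9.24 CPM at D1, against 34.4, 27.1 and 25.7 CPM in DMSO. At D2 it had 12.3, 9.67 and 9.77 CPM, also below every DMSO library, while the 15 libraries of D3 to D7 overlapped DMSO. Its log2 fold change at D1 was -1.88 ± 0.434 (SE; edgeR adjusted p = 0.0142), and 5 of 11 alternatives lost the call, among them those without DMSO replicate A or any D1 replicate.

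More genes separated D1 from the other levels than from DMSO. Against the mean of D2 to D7, 231 genes were higher (2.45%) and 400 lower (4.24%) at D1, together 6.69% of those tested, with 20 and 62 over 2-fold. This contrast sets 3 libraries against 18, where the one with DMSO sets 3 against 3, and it holds no DMSO library. Leaving out D1 replicate B gave 301 genes and leaving out D1 replicate C gave 280. Without any other single library it lay between 434 and 690, and without DMSO replicate B it was 630. Across the level numbers, 520 of 9416 genes had a slope (5.52%), 345 upwards (3.66%) and 175 downwards (1.86%) with the number. Leaving out D1 replicate A gave 308 slopes, B 274 and C 278. With D1 left out altogether, a fit added once the data were seen, no gene was called for a slope over D2 to D7. In that edgeR fit 737 of 9343 genes had an unadjusted p under 0.05.

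The 4 genes named in the comparison of D1 with D2 to D7 passed in every alternative fit that gave them an adjusted p. DESeq2 gave none for Rsub_12609. Rsub_09628 had 185, 146 and 197 CPM at D1, while the 18 libraries of D2 to D7 had a median of 64.7 CPM (33.4 to 121) and DMSO had 58.7, 70.4 and 95.3 CPM. Its log2 fold change against D2 to D7 was 1.39 ± 0.152 (SE; edgeR adjusted p = 4.68e-08). Rsub_12609 was at a lower level, with 18.9, 22.2 and 25.2 CPM at D1 and a median of 7.55 CPM (4.31 to 15.5) at D2 to D7, a log2 fold change of 1.45 ± 0.243 (SE; edgeR adjusted p = 7.84e-05). In DMSO it had 11.1, 8.12 and 7.62 CPM, and the difference of D1 from DMSO, 1.28 ± 0.363 on the log2 scale, did not pass (edgeR adjusted p = 0.0571).

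Both genes named as lower at D1 than at D2 to D7 were required by the naming rule to lie under all 18 of those libraries. Their D1 values were also under every DMSO library. Rsub_11707 had 9.85, 13.7 and 7.56 CPM at D1, against a median of 54.8 CPM (23.3 to 73.9) at D2 to D7. In replicate A at D3 to D7 it had 23.3 to 38.8 CPM. The B and C libraries of those levels, at 54.2 to 73.9 CPM, were all higher. In DMSO Rsub_11707 had 40.5, 36.5 and 21.9 CPM, inside the D2 to D7 range but for the lowest. Its log2 fold change against D2 to D7 was -2.25 ± 0.334 (SE; edgeR adjusted p = 1.15e-05), and against DMSO it was -1.63 ± 0.440 (SE; edgeR adjusted p = 0.0444). Rsub_09261, already named against DMSO, had a median of 183 CPM (69.3 to 243) at D2 to D7, and a log2 fold change of -2.41 ± 0.335 (SE; edgeR adjusted p = 4.27e-06).

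**Figure D3:**
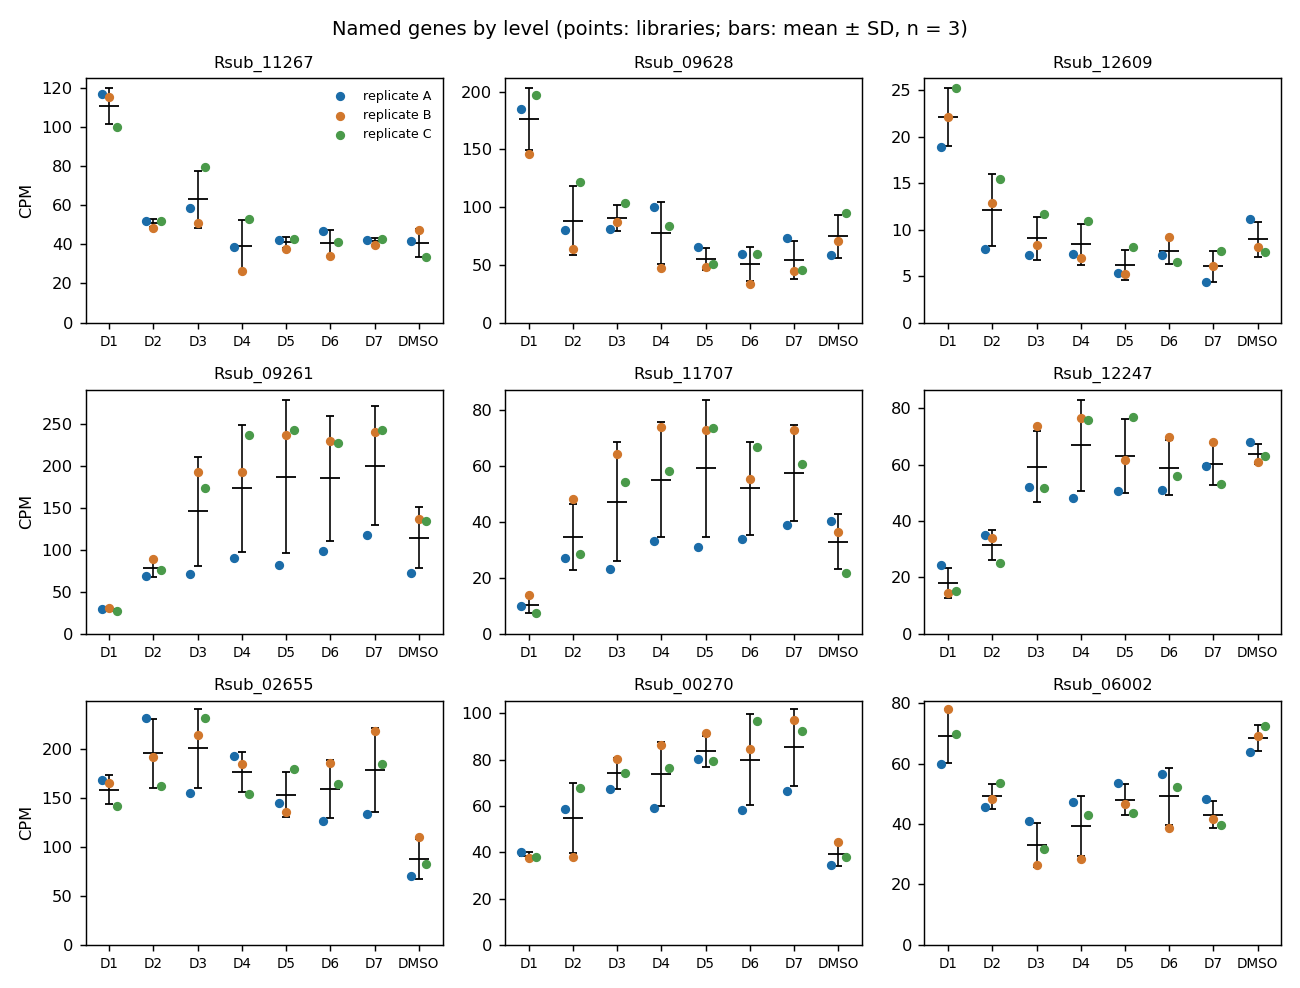
CPM (y axis) of 9 of the 16 named genes at D1 to D7 and in DMSO (x axis); points are libraries, coloured by replicate letter, and bars give the mean ± SD of 3 libraries. Rsub_11267, Rsub_09628 and Rsub_12609 are highest at D1, Rsub_09261, Rsub_11707 and Rsub_12247 are lowest there, and Rsub_02655 is above DMSO in all 21 treated libraries.

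Most genes called at D1 had a difference of the same sign at D2. D2 was set against the mean of D3 to D7, a contrast added after the data were seen that holds neither the D1 nor the DMSO libraries that chose the genes, although both contrasts come from 1 fit with 1 estimate of the spread. Of the 53 genes higher at D1 than in DMSO, 51 had a positive difference, with a median log2 value of 0.24 (quartiles 0.18 and 0.39). Of the 98 lower genes, 94 had a negative difference, with a median of -0.29 (quartiles -0.43 and -0.20). Over all genes tested, 4898 of 9436 were above 0 and the median was 0.01. In this contrast 0 genes were called higher and 2 lower over all genes (edgeR, 0.0212%), 1 of them among the 98. The unadjusted p was under 0.05 for 900 genes. DESeq2 called 34 in all, the fit with no filter on low counts 67 and a fit with a replicate block 111. The edgeR count of 2 was 0 without D2 replicate A or B, 1 without D2 replicate C and 4 without DMSO replicate B or C. It was 5 without D1 replicate A, and 9, 10, 13 and 11 without replicate A of D3, D4, D5 and D6.

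The same held within each replicate letter. In replicate A 49 of the 53 higher genes lay above 0 and 85 of the 98 lower genes below 0. Replicate B had 49 and 94, and replicate C had 40 and 89. The share of the 151 genes on the same side was 96.0%. Each of the 24 libraries was then left out in turn and the D1 genes were called anew. The share among the 39 to 159 genes then called ran from 92.3% to 97.7%. One level further, in D3 against the mean of D4 to D7, likewise added, 43 of the 53 lay above 0 (median log2 difference 0.099) and 77 of the 98 below 0 (median -0.097), with a median of 0.0037 over all genes and no gene called (edgeR, 286 higher and 223 lower at an unadjusted p under 0.05). Set against DMSO, which these comparisons share with the one that chose the genes, the higher genes had median log2 fold changes of 0.38, 0.21, 0.12, 0.04, -0.001 and 0.09 at D2 to D7. The lower genes had medians of -0.28, -0.04, 0.02, 0.05, 0.07 and 0.05. With DMSO replicate B left out, the medians of the genes then called were 0.47, 0.40, 0.29, 0.21, 0.20 and 0.15 for the higher genes and -0.31, -0.09, -0.01, 0.04, 0.009 and -0.008 for the lower ones.

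**Figure D4:**
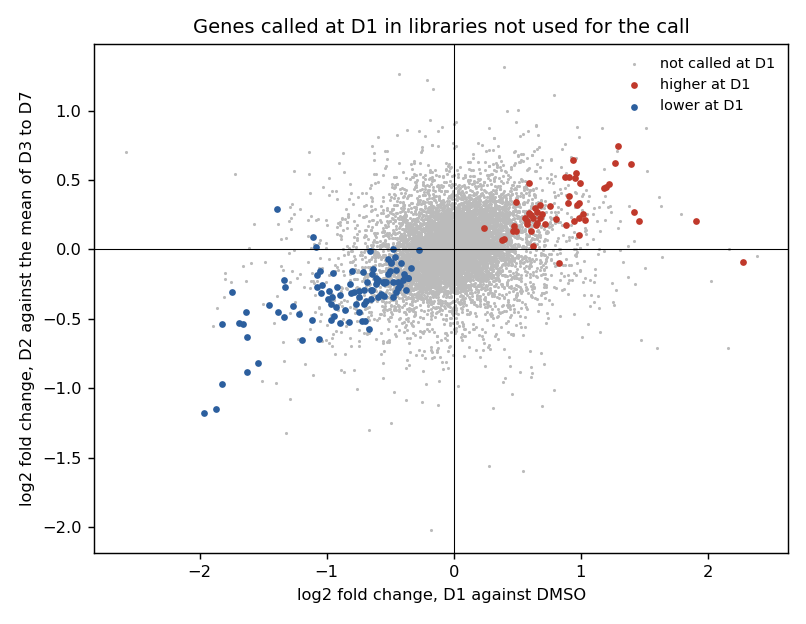
Each point is 1 of the 9436 genes tested; the x axis gives its log2 fold change at D1 against DMSO and the y axis that at D2 against the mean of D3 to D7, with genes called at D1 in red (higher) and blue (lower). The called genes lie mostly in the upper right (51 of 53) and lower left (94 of 98) of the plot.

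Rsub_12247 fell at both D1 and D2. It had 24.2, 14.5 and 15.1 CPM at D1 and 35.1, 33.9 and 25.2 CPM at D2, against 67.8, 60.9 and 62.9 CPM in DMSO. The 15 libraries of D3 to D7 ran from 48.0 to 76.9 CPM with a median of 59.5, and overlapped DMSO but neither D1 nor D2. The log2 fold change against DMSO was -1.82 ± 0.245 at D1 (SE; edgeR adjusted p = 1.23e-05) and -1.03 ± 0.226 at D2 (SE; edgeR adjusted p = 0.0472). The difference of D2 from D3 to D7 was -0.97 ± 0.179 on the log2 scale (SE; edgeR adjusted p = 0.0137). Its D2 call against DMSO was lost in 9 of 14 alternatives, among them those without any 1 D2 or DMSO library.

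The other genes named at D2 were Rsub_05984 and Rsub_02655, which rose, and Rsub_09868, which fell. Rsub_05984 had 36.8, 30.6 and 29.3 CPM at D2, against 7.09, 14.9 and 15.2 CPM in DMSO (log2 fold change 1.38 ± 0.309, SE; edgeR adjusted p = 0.0475). Rsub_09868 had 747, 756 and 777 CPM at D2, against 1155, 1541 and 785 CPM in DMSO (log2 fold change -0.60 ± 0.134, SE; edgeR adjusted p = 0.0472). The DMSO libraries of Rsub_09868 were spread widely, and without DMSO replicate B its log2 fold change was -0.35, not called. Rsub_05984 lost its call in 10 of 14 alternatives and Rsub_09868 in 9 of 15, among them those without any 1 D2 library. The count of 12 genes at D2 rested on single libraries: it was 0 without D2 replicate A, 3 without D2 replicate C or DMSO replicate A, and at most 7 without D2 replicate B, DMSO replicate B or C, or D1 replicate B or C.

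Rsub_02655 was higher than DMSO at nearly every level. It was called at 5 of the 7, D1 to D4 and D7, and in the mean of all levels. All 21 treated libraries, from 126 to 232 CPM with a median of 168, lay above DMSO, which had 69.9, 109.6 and 81.9 CPM. The log2 fold change of the mean of the 7 levels was 1.01 ± 0.153 (SE; edgeR adjusted p = 0.000558), and those at D5 and D6 alone did not pass. Its D2 call was lost without D2 replicate A (1.04), and those at D4 and D7 without DMSO replicate A (0.91 at both) or C (1.01 at both), among others. A test among the 7 levels did not call it (edgeR adjusted p = 0.618). Only 6 genes were called in the mean of the levels, 3 higher and 3 lower (0.0318% each, 0.0636% together), Rsub_09868 among the lower. This count was 1 without DMSO replicate A, 11 without D3 replicate A and 10 without D5 replicate A.

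A few genes passed against DMSO at later levels and not at D1. Rsub_00270 had 80.1, 91.4 and 79.3 CPM at D5 and 66.4, 97.4 and 92.6 CPM at D7, against 34.4, 44.7 and 38.1 CPM in DMSO. At D1 it had 40.2, 37.4 and 37.8 CPM, inside the DMSO range. The log2 fold changes against DMSO were 1.11 ± 0.213 at D5 (SE; edgeR adjusted p = 0.0458) and 1.13 ± 0.215 at D7 (SE; edgeR adjusted p = 0.0233), and the difference of D1 from D2 to D7 was itself called, at -0.95 ± 0.163 (SE; edgeR adjusted p = 0.000109). Rsub_12391, with 252, 294 and 286 CPM at D5 against 195, 168 and 186 CPM in DMSO, was the other gene named there, at a log2 fold change of 0.59 ± 0.119 (SE; edgeR adjusted p = 0.0458). Both lost the D5 call in 11 of 15 alternatives, among them those without any 1 D5 or DMSO library, and the D5 count was 0 with RLE scaling and without any 1 D5 library, DMSO replicate A, or D1 replicate B or C. It was 1 without DMSO replicate C.

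At D3, the naming rule gave Rsub_07220 and Rsub_12713, which rose, and Rsub_06002, which fell. The other of the 2 lower genes called at D3 had a log2 fold change of -3.09 and did not meet the naming rule. Rsub_06002 had 40.9, 26.6 and 31.7 CPM at D3, against 63.8, 69.0 and 72.4 CPM in DMSO, a log2 fold change of -1.05 ± 0.205 (SE; edgeR adjusted p = 0.0128). At D1 it had 59.9, 77.9 and 69.7 CPM, which overlapped DMSO, and D1 was higher than D2 to D7 by 0.68 ± 0.139 on the log2 scale (SE; edgeR adjusted p = 0.00107). Rsub_12713 had 80.3, 169 and 179 CPM at D3, against 60.7, 51.4 and 63.8 CPM in DMSO, with a log2 fold change of 1.27 ± 0.245 (SE; edgeR adjusted p = 0.0128). Its D1 libraries, at 56.8, 58.8 and 51.2 CPM, overlapped DMSO, and its replicate A at D3 was far below replicates B and C. Rsub_07220 had 29.7, 27.3 and 31.7 CPM at D3, against 4.05, 9.47 and 12.4 CPM in DMSO, with a log2 fold change of 1.76 ± 0.371 (SE; edgeR adjusted p = 0.0353). Without D3 replicate B or C, or DMSO replicate A, none of the 3 genes was called. The call was lost in 6 of 14 alternatives for Rsub_07220, 6 of 15 for Rsub_12713 and 5 of 15 for Rsub_06002. Among these were, for all 3, one fit with the isocyanate libraries, and for Rsub_12713 any 1 DMSO library left out. The D3 count of 7 was 3 with DMSO replicate A left out and 12 with DMSO replicate B left out. With D3 replicate A left out it was 14, and with D3 replicate B or C left out 1.

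Many genes called at D1 of Metolachlor OA were also called at D1 of other chemicals, whose DMSO libraries were different ones. Of the 53 higher genes, 39 were called higher at D1 in 2 or more of the 10 chemicals with other DMSO libraries, 16 in 5 or more and 8 in none. Over all 9436 genes, 5.83% were called higher in 2 or more and 0.477% in 5 or more. Of the 98 lower genes, 64 were called lower in 2 or more, 16 in 5 or more and 15 in none, against 5.70% and 0.519% of all genes in 2 or more and in 5 or more. No share over all genes is given for the counts in none, so nothing is read from them. The 10 chemicals share DMSO libraries in pairs, so that 2 of them are not always separate evidence. With DMSO replicate B left out of the Metolachlor OA comparison, 24 of 33 higher genes (72.7%) and 35 of 58 lower genes (60.3%) recurred in 2 or more. With DMSO replicate A left out it was 13 of 14 and 13 of 25, with D1 replicate B left out 18 of 22 and 24 of 42, and with D1 replicate C left out 20 of 25 and 12 of 18. In all 10 chemicals, both shares were above the percent of all genes called in that direction. With gabapentin, an anticonvulsant drug, 69.8% of the higher genes (37, or 5.5% of gabapentin's own 673) were higher, against 7.25% of all genes, and 58.7% of the lower genes tested there (54, or 8.65% of its 624) were lower, against 6.72%. The smallest shares were 11.3% of the higher genes with fexofenadine, an antihistamine (6, or 75% of its 8), against 0.0836% of all genes, and 4.17% of the lower genes with cetirizine, another antihistamine (4, or 12.9% of its 31), against 0.338%. Another 2 of those 96 lower genes were higher with cetirizine (2.08%), against 0.328% of all genes.

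The contrast of D1 with D2 to D7, which uses no DMSO library, was counted likewise in a comparison added after the data were seen. Recurrence in 2 or more and in 5 or more was again above that of all genes. It was less frequent than for the genes called against DMSO. Of the 231 higher genes, 94 were called higher in 2 or more of the other 11 chemicals (all genes, 4.85%), 27 in 5 or more (0.371%) and 81 in none. Of the 400 lower genes, 157 were called lower in 2 or more (all genes, 4.18%), 12 in 5 or more (0.148%) and 134 in none. Here too, the counts in none stand without a share over all genes. With fexofenadine 43.5% of the lower genes (174, or 73.1% of its 238) were lower, against 2.49% of all genes. With cis-nonachlordane, a chlordane constituent, 0 of the higher genes and 0.253% of the lower genes were called, against 0.0422% and 0.0738% of all genes. Calls in the opposite direction were most frequent with 2-tert-butyl-4-methoxyphenol, an antioxidant. There 15 of 230 higher genes were lower (6.52%) and 40 of 394 lower genes were higher (10.2%), near the 6.23% and 9.21% of all genes called in those directions. The concentrations at D1 are not given for any chemical, and no order between chemicals is read from these shares.

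**Figure D5:**
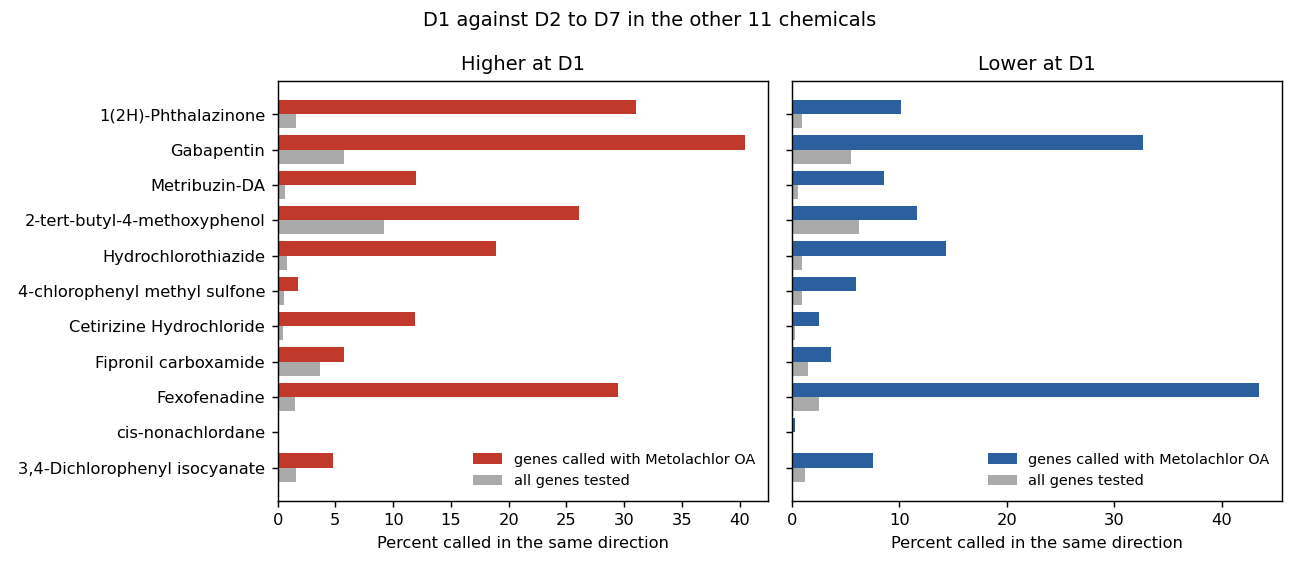
Percent (x axis) of genes called at D1 against D2 to D7 with Metolachlor OA that were called in the same direction in each of the other 11 chemicals (rows), with the percent of all genes called there in grey; higher genes left, lower genes right. The coloured bar is longer than the grey one in every row except for the higher genes with cis-nonachlordane, where none was called.

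The named genes recurred to different degrees. Rsub_11267 was called higher at D1 than in DMSO in 5 of 10 other chemicals and Rsub_09628 in 5, with none calling either lower. Rsub_09261 was below DMSO at D1 in all 10 (log2 fold changes of -2.94 to -0.25) and called in 3. Rsub_12609 was above DMSO in all 10 and called in 3, while Rsub_08410 was called in none. Rsub_09868, which fell with Metolachlor OA, was called higher in 4 and lower in none. Its fall was not particular to Metolachlor OA among the chemicals with these DMSO libraries. In one fit, its log2 fold change at D1 was -0.71 with Metolachlor OA and -0.72 with 3,4-Dichlorophenyl isocyanate.

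Metolachlor OA and 3,4-Dichlorophenyl isocyanate, an intermediate in the making of phenylurea herbicides such as diuron, were compared directly, level by level. Over the 7 levels together 999 of 9560 genes differed between them (10.4%), and at D1 93 were higher (0.973%) and 170 lower (1.78%) with Metolachlor OA, together 2.75%. Rsub_09628 was higher by 1.67 ± 0.356 on the log2 scale at D1 (SE; edgeR adjusted p = 0.00224), and Rsub_02655 by 1.16 ± 0.311 (SE; edgeR adjusted p = 0.0250). Over the 7 levels together Rsub_09628 passed (edgeR adjusted p = 7.9e-05) and Rsub_02655 did not (edgeR adjusted p = 0.0560). At D1 Rsub_09261 did not pass, with a difference of 0.44 ± 0.792 (SE; edgeR adjusted p = 0.875), an error larger than the difference. The count at D1 was 128 without Metolachlor OA D1 replicate A, and 146 and 152 without isocyanate D1 replicates B and C. A shared level label does not state a shared concentration.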

How the data were processed

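Gene expression was measured by 3′ mRNA sequencing with unique molecular identifiers, per the labels' protocols. The authors deposited raw counts per gene, in 1 table of 24 libraries for each chemical. The submitters' processing notes name featureCounts 2.0.6, SAMtools 1.15.1, STAR 2.7.10a and fastp 0.23.2. Build, annotation, strand setting and any collapse by molecular identifier remain not given in the sources used here. Reads that were not collapsed would include PCR copies, and counts of paralogs or of genes with overlapping ends are uncertain. All 288 columns were matched to samples by name, and the DMSO counts of the 2 tables that hold them differed in 1 value. Within groups, the 24 pairs of libraries had a chi-square per degree of freedom of 1.69 to 4.04 and none was treated as a duplicate. That test covers counting error only, and with PCR copies uncollapsed a value over 1 does not show separate samples.

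The counts were tested with edgeR 4.0.16 in R 4.3.3 (filterByExpr defaults, TMM, glmQLFit with 1 coefficient for each of the 8 groups, glmQLFTest, Benjamini-Hochberg over all genes tested), with no term for the replicate letter. The square root of the common dispersion was 0.114. A gene with an adjusted p under 0.05 is called. The SE of a log2 fold change is its size over the square root of its F statistic, and CPM uses TMM-scaled totals. Genes were named at each level as the 2 largest rises and 2 largest falls among called genes with a mean of at least 10 counts and no overlap of the treated with the DMSO libraries. For D1 against D2 to D7, D1 had to lie beyond the 18 other treated libraries. This gave 16 genes. The comparisons and lists were chosen with earlier results of these data known. Lists by gene function could not be counted, since no identifier is paired with a name.

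Tested on simulated counts for D1 with 200 genes changed among 9335, the comparison with DMSO recovered 25.5%, 68% and 87.1% of genes changed by 1.5-, 2- and 4-fold, with 8 false calls. The comparison of D1 with D2 to D7 recovered 60%, 82.7% and 98.6%, with 11 false calls. The simulated counts were drawn independently for each library, with no shift shared by a replicate letter and no outlying library. Recovery and false calls in the real libraries may therefore differ. Alternatives were DESeq2 1.42.0, RLE scaling, other filters, a replicate block, one fit with the isocyanate libraries and leaving out single libraries. Where DESeq2 gave a gene no adjusted p, that fit is not among its alternatives, as for Rsub_08410, Rsub_01016, Rsub_05984, Rsub_12247, Rsub_07220 and Rsub_12609.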

Additional observations from a re-analysis of the deposited data

Results flagged for a closer look

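Of the 16 named genes, 3 differed at D1 between Metolachlor OA and 3,4-Dichlorophenyl isocyanate, which share their DMSO libraries, in the direct edgeR test between treated libraries. Rsub_09628 was higher with Metolachlor OA by 1.67 ± 0.356 on the log2 scale (SE; adjusted p = 0.00224), with fold changes against DMSO in the same fit of 1.23 with Metolachlor OA and -0.45 with the isocyanate. Rsub_02655 was higher by 1.16 ± 0.311 (SE; adjusted p = 0.0250), with 0.88 and -0.28 against DMSO for Metolachlor OA and the isocyanate. Rsub_11267 was higher by 0.65 ± 0.175 (SE; adjusted p = 0.0271), with 1.46 and 0.82. The concentrations behind the label D1 are not given for either chemical, and whether they differ was not tested.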

How the results depend on the processing

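Of 342 recomputed values of named genes, 244 kept their direction and call, 98 kept their direction without the call, and 0 reversed. Fits in which DESeq2 gave a gene no adjusted p are not among the 342. The 4 genes named for D1 against D2 to D7 kept their calls in every fit that gave them an adjusted p. For Rsub_12609 these were 29 fits, without DESeq2, and for each of the others 30. The share of D1 genes on the same side at D2 was 96.0%. It ran from 92.3% to 97.7% with each of the 24 libraries left out in turn and the D1 genes called anew. Counts of called genes moved more, and the cause was not tested. The letters were not treated as pairs, since same-letter correlations of deviations ran from -0.017 to 0.20 and not every one was over 0.1. Their median was 0.061, against -0.036 between letters, and 22 of 24 libraries correlated best with their own letter, a hint of pairing from the data and not from the design. With a replicate block, the counts at D1 to D7 were 330, 52, 28, 18, 19, 27 and 31, and those over all groups 624, among levels 583, for the mean of levels 31, for D2 against D3 to D7 111, and for the isocyanate at D1 421. With no filter on low counts they were 242, 27, 20, 17, 14, 28 and 14 at D1 to D7, 504 over all groups, 472 among levels, 24 for the mean and 67 for D2 against D3 to D7. In one fit with the isocyanate libraries, they were 39 at D1, 2 at D2, 0 at D3, D4, D5 and D7, 72 over all groups, 86 among levels, 2 for the mean, 0 for D2 against D3 to D7 and 303 for the slope. DESeq2 called 13 at D3 and D4, 8 at D6, 4 at D7, 14 for the mean and 34 for D2 against D3 to D7. At D5, RLE scaling and the filter at a mean of 10 counts both gave 0, and the slope over D2 to D7 alone gave 0.

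Leaving out single libraries gave 39 to 155 at D1, 0 to 8 at D2, 1 to 14 at D3, 0 to 2 at D4, 0 to 2 at D5, 0 to 5 at D6 and 0 to 3 at D7. Over all groups it gave 109 to 276, among levels 107 to 275, for the mean 1 to 11, for D1 against D2 to D7 280 to 690, for D2 against D3 to D7 0 to 13, for the slope 274 to 625, and for the isocyanate 907 to 1021 over all levels and 128 to 279 at D1. With an adjusted p under 0.1 in the other chemicals, the 103 recurring D1 genes became 119, and with single DMSO or D1 libraries left out they numbered 26 to 112. With 3 libraries a group, most genes changed by 1.5-fold at D1 in simulated counts were uncalled against DMSO, so an uncalled gene is not shown to be unchanged.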

Other observations

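Rsub_01749, chosen after its values were seen and not by the naming rule, moved in opposite directions at D1 in different chemicals. With Metolachlor OA it had 28.8, 23.7 and 29.4 CPM at D1, against 64.8, 52.8 and 68.6 CPM in DMSO, a log2 fold change of -1.20 ± 0.235 (SE; edgeR adjusted p = 0.00395). Against its own DMSO libraries it was higher at D1 by 5.82 on the log2 scale with 2-tert-butyl-4-methoxyphenol (edgeR adjusted p = 4.48e-20) and by 4.98 with fipronil carboxamide (edgeR adjusted p = 2.21e-24). In the other 8 chemicals with their own DMSO libraries it was not called, with log2 fold changes of -0.52 to 0.15. Between Metolachlor OA and 3,4-Dichlorophenyl isocyanate at D1 it differed by -1.71 ± 0.228 (SE; edgeR adjusted p = 5.5e-07).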
